A study of Mus musculus with 28 samples.

Results

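The last interval of the control induction course was analysed, from day 5 to day 7. It rests on 4 of the 28 RNA-seq libraries of the series, the libraries titled for control cells on day 5 and on day 7, with 2 replicates each. Cells of both groups were mouse embryonic fibroblasts (MEFs) whose genotype is labelled WT. According to the study's methods they were OG2 MEFs, taken from embryos of a cross with OG2 males and carrying a green fluorescent protein reporter of Oct4. They had received Oct4, Klf4 and Sox2 (OKS) from retroviral vectors and then grew in the medium iCD1, whose addition is day 0, and the control arm received DMSO, the solvent of the inhibitor used in the other arms. The labels give no clone, pool or embryo, so each library stands for a whole dish in which converted and unconverted cells were mixed, and fewer cells of a type cannot be told apart from less RNA per cell. Nothing states that replicates came from separate cultures, so the p-values measure only the spread between libraries titled as replicates, which may be technical. The other arms were p38i, in which the p38 inhibitor SB203580 was present during induction, and pre-p38i, in which it was present before induction. Their libraries also enter the filter on low genes and the spread behind the p-values, which came from a model of all 28 libraries. Their values are given only where those of the control are set against them.

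Induced pluripotent stem cells form when a few transcription factors, supplied from outside, switch on the cell's own pluripotency network and switch off its former identity. In fibroblasts an early part of this path is a mesenchymal-to-epithelial transition, in which E-cadherin, tight-junction proteins and keratins replace the fibroblast matrix and the factors of the Snail, Zeb and Twist families that repress epithelial genes. The endogenous pluripotency genes, among them Nanog and Esrrb, come late, and pluripotent cells divide fast, with weak brakes on entry into S phase and a weak interferon response. Day 5 to day 7 is the last interval that the libraries cover, and it asks how far each of these programmes moved late in the course.

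Each library is a list of whole numbers, 1 per gene, that sum to between 991287 and 992537. Such totals arise when TPM, a read number scaled by gene length and library size, is rounded down, and the numbers are called values here. They hold no record of read numbers, so the depth is unknown, no counting interval can be given, and a gene at 0 is only listed at 0. In the 4 libraries 14056 to 14170 genes had a value of at least 1, and mitochondrial genes took 4.54 to 4.83% of the total on day 5 and 3.62 to 4.02% on day 7. Values were compared as log2(value + 1) with limma for 13230 genes whose mean value over the 28 libraries reached 1, in a single model of the 14 groups, and a gene was called at a Benjamini-Hochberg adjusted p-value under 0.05. Differences on this scale are written as day 7 minus day 5 with their standard error, and the scale shrinks the differences of low genes. Of 2 libraries against 2, an exact permutation test cannot give a p-value below 0.333, so each adjusted p-value below is limma's. The fibroblast label was checked against its markers. Thy1, a fibroblast surface protein, had a mean value of 378 in untreated MEFs and stood at 24 and 32 on day 5, and Col1a1, the chain of collagen I, went from a mean of 4015.5 to 418 and 507. Both markers were thus far below their MEF level in the libraries compared here.

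From day 5 to day 7, 1363 genes rose and 2169 fell, which is 10.3% and 16.4% of the genes tested, or 26.7% in either direction, and the median difference over all genes was −0.05. Of the genes called, 239 rose and 176 fell by at least 1 on the log2 scale, 1.81% and 1.33% of the genes tested. Protein-coding genes made up 94% of the genes that rose, 97.4% of those that fell and 93.7% of those tested. The values of day 5 and day 7 did not overlap in 3521 of the 3532 called genes, against 54.7% of all genes tested. Where a called gene is said below to have no overlap, this describes its values and is no support beyond the call. The interval was smaller than those before day 3 and close in size to the one before it. The root mean square difference between group means was 1.02 from MEFs to day 1, 0.76 from day 1 to day 3, 0.463 from day 3 to day 5 and 0.455 from day 5 to day 7. Replicates, compared as single libraries, differed by 0.364 on day 5 and 0.325 on day 7. Means of 2 libraries vary less than single libraries, so these values overstate the noise of a step. Most changes were therefore modest in size, and many called genes moved by less than a factor of 2. The count of called genes was 1396 in a fit of the 4 libraries alone, 2136 without replicate 2 of day 5 and 2211 without replicate 1 of day 7.

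**Figure D1:**
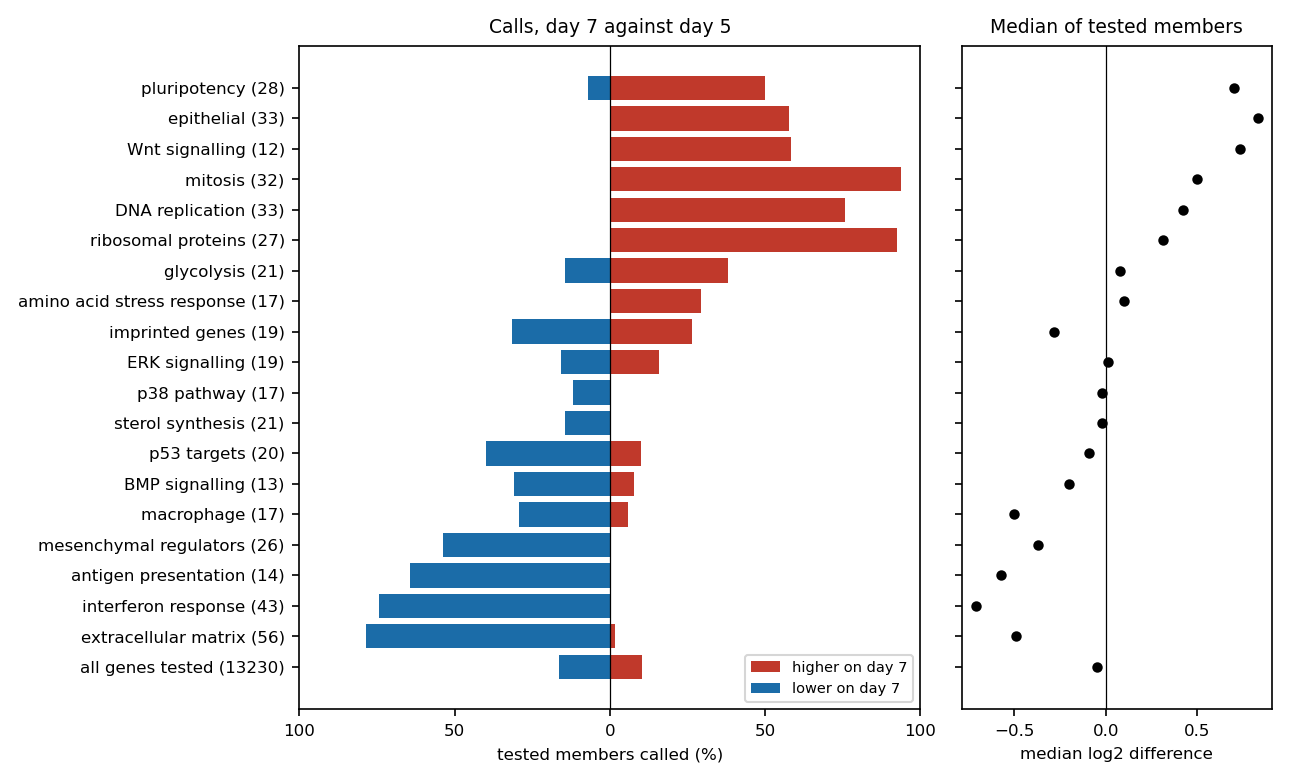
Share of tested list members called higher (red, right) or lower (blue, left) on day 7 against day 5 in control cells, in percent, and the median log2 difference of the tested members (black points), with the number of tested members in brackets. Epithelial, mitosis and ribosomal protein genes lie to the right and extracellular matrix and interferon response genes to the left of all genes tested, of which 10.3% rose and 16.4% fell.

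Several pluripotency genes listed at 0 or 1 through day 5 stood higher on day 7. Of 42 listed pluripotency genes 28 were tested, 14 rose and 2 fell, with a median difference of 0.70 against −0.05 over all genes. Genes near 0 before day 7 passed the filter on the mean over the 28 libraries only with their day 7 values. The share of tested members that rose is therefore partly set by the filter, here and in other lists with such genes. Of the core and naive transcription factors 18 were listed. Among the core and naive transcription factors 8 of 13 rose and none fell, 5 of 13 without replicate 2 of day 5, without replicate 1 of day 7 or in a fit of the 4 libraries alone, and 4 of those with a mean value reaching 5. Nanog, a homeodomain factor of the pluripotency core, had values of 0 and 1 on day 5 and of 12 and 16 on day 7 (difference 3.39 ± 0.27, adjusted p = 3.2e-08). Both day 7 libraries were thus far above both day 5 libraries, and in a fit of the 4 libraries alone the adjusted p was 0.0534. Esrrb, a nuclear receptor that maintains the naive state, was listed at 0 in both libraries of day 5 and at 7 and 4 on day 7 (2.66 ± 0.31, adjusted p = 3.7e-06). Sall4, a zinc-finger partner of Oct4, was listed at 0 and 0 and then at 8 and 8 (3.17 ± 0.23, adjusted p = 1.2e-08). Dppa5a, an RNA-binding protein of embryonic stem cells, went from 0 and 0 to 22 and 30 (4.74 ± 0.28, adjusted p = 6.4e-10). None of these 4 genes was above 1 in any control library before day 7. A Pigp transcript, from a gene on another chromosome, is 95.9% identical to Dppa5a over 67.4% of its length, so reads could be split between them, and the Pigp values were 28 and 26 on day 5 and 26 and 24 on day 7.

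Other members had been present earlier and rose further. Nr5a2, a nuclear receptor that activates Oct4, rose from 3 and 2 to 13 and 17 (adjusted p = 1.4e-06), and Klf2, a naive-state factor of the Klf family, rose from 5 and 5 to 12 and 15 (1.27 ± 0.16, adjusted p = 1.0e-05). Zfp42, known as Rex1 and a marker of naive cells, stood at 14 and 14 on day 5 and at 31 and 29 on day 7 (1.05 ± 0.29, adjusted p = 0.0109). Its call was lost without replicate 2 of day 5 (adjusted p = 0.0594) and without replicate 1 of day 7 (adjusted p = 0.0702), as well as with a pseudocount of 0.1 (adjusted p = 0.411) and in a fit of the control groups alone (adjusted p = 0.0511). Tfcp2l1, another naive-state factor, had 24 and 26 and then 35 and 38 and missed the threshold (0.53 ± 0.20, adjusted p = 0.0609). The 2 sets of Tfcp2l1 values do not overlap, which holds for 54.7% of all genes tested. Among other genes of the pluripotent state, Slc2a3, a high-affinity glucose transporter, rose from 22 and 22 to 65 and 69 (1.56 ± 0.17, adjusted p = 1.8e-06). Gdf3, a Tgf-beta family ligand, rose from 26 and 26 to 55 and 52 (1.01 ± 0.16, adjusted p = 1.3e-04). Tdh, the threonine dehydrogenase on which mouse embryonic stem cells rely, rose from 133 and 125 to 254 and 245 (0.95 ± 0.23, adjusted p = 0.00423, and 0.099 in a fit of the control groups alone). Each of these 3 genes was higher in both day 7 libraries than in either day 5 library. The members that fell were Spp1 and Upp1. Spp1, the secreted protein osteopontin, went from 844 and 849 to 351 and 361 (−1.25 ± 0.08, adjusted p = 4.3e-09), and Upp1, uridine phosphorylase, went from 192 and 165 to 143 and 140 (−0.33 ± 0.12, adjusted p = 0.0455). The Upp1 call did not hold without replicate 1 of day 5 (adjusted p = 0.295), without replicate 1 or 2 of day 7 (adjusted p = 0.127 and 0.158) or under most other alternatives.

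The 14 members that were not tested for low values stood at 0 to 1 on day 5 and at 0 to 4 on day 7. Dppa3, also called Stella, was listed at 0 and 0 on day 5 and at 0 and 1 on day 7. Utf1, a chromatin factor of embryonic stem cells, was listed at 0 and 0 and then at 1 and 3, and Dppa2, which primes developmental promoters, at 0 and 0 and then at 3 and 1. These values lie at the floor of the table, where a difference of a single unit has no tested error. Over the 42 members, 16 and 17 were listed at 0 in the day 5 libraries and 7 and 6 in the day 7 libraries.

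**Figure D2:**
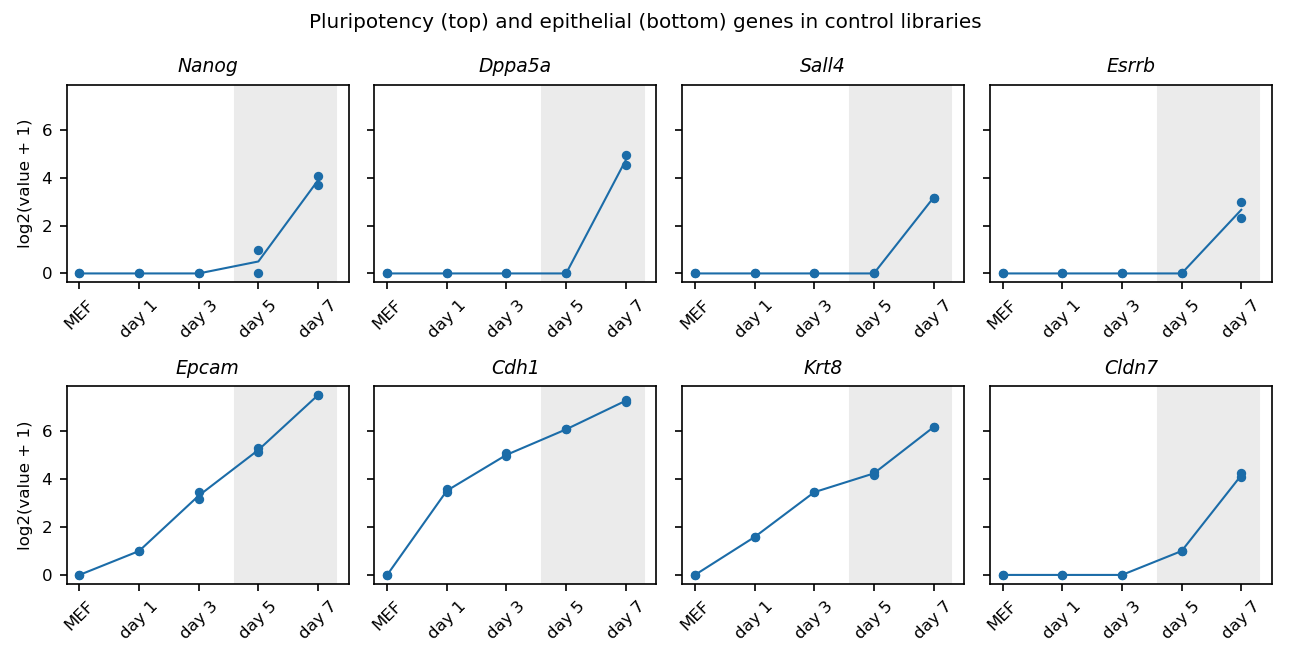
Values of 4 pluripotency genes (top) and 4 epithelial genes (bottom) in control libraries from MEFs to day 7, as log2(value + 1). Epcam, drawn at the bottom, is counted in the pluripotency list. Points are single libraries (2 per group), lines join group means, and grey marks the interval from day 5 to day 7, in which Nanog, Dppa5a, Sall4 and Esrrb rise from 0 or 1 while Epcam, Cdh1 and Krt8 continue a rise that began by day 1.

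In the 250 bases before their start sites, Nanog and Zfp42 hold letters of the kind that Oct4 and Sox2 are known to bind. The Nanog promoter, chr6:122707239-122707488 (plus strand) in GRCm38.p6, is shown because it holds a composite Sox-Oct element, and the Zfp42 promoter, chr8:43307010-43307259 (minus strand), because it holds an octamer.
Nanog: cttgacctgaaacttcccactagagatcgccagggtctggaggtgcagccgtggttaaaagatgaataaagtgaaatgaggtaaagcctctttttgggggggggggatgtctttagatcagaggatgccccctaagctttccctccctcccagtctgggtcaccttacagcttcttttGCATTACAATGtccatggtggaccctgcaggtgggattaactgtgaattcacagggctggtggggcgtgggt
Zfp42: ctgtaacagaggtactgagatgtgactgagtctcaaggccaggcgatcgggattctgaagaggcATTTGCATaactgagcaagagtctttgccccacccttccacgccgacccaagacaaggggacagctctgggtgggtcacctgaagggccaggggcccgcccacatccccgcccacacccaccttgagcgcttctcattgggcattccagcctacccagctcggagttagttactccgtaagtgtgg
Both are from RefSeq, 5′ to 3′ in the direction of the gene, and capitals mark the match. The letters searched on both strands were CATTGT and ATGC with 1 free base between them for the Sox-Oct element, found at −72 to −62 from the Nanog start, and ATGCAAAT for the octamer, found at −186 to −179 from the Zfp42 start. The Sox-Oct letters occur in 17 of 27025 mouse promoters of this length (0.0629%) and the octamer in 1.81%, against 1 (Nanog itself) and 3 of the 17 tested pluripotency genes that had a sequence. Among all genes with a sequence that rose from day 5 to day 7 the octamer occurs in 1.18%, and among those that fell in 1.64%. A match describes the letters only.

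The genes that had been supplied did not rise. Pou5f1, which encodes Oct4, had values of 2944 and 3117 on day 5 and of 2214 and 2316 on day 7 (−0.42 ± 0.05, adjusted p = 1.6e-06). Klf4 went from 755 and 801 to 615 and 605 (−0.35 ± 0.08, adjusted p = 0.00388), a call that was lost without replicate 2 of day 5 (adjusted p = 0.0505) and in a fit of the control groups alone (adjusted p = 0.0564). Sox2 had 942 and 1018 and then 842 and 825 (−0.23 ± 0.18, adjusted p = 0.377). All 3 were lower in every day 7 library than in every day 5 library, and Sox2 was the member not called. The days did not overlap in 54.7% of all genes tested. These values add retroviral and endogenous transcripts, which cannot be told apart in this table, and untreated MEFs held a summed value of 18 and 20 for the 3 genes.

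Epithelial genes rose as a group, and none of the tested members fell. Of 40 listed genes 33 were tested, 19 rose, and the median difference was 0.83. The count was 12 with a pseudocount of 0.1 and 11 of those with a mean of at least 5. Epcam, an epithelial adhesion protein that pluripotent cells also carry, had values of 39 and 34 on day 5 and of 182 and 183 on day 7 (2.29 ± 0.20, adjusted p = 9.9e-08). It is counted in the pluripotency list and not among these 33 genes. Cdh1, which encodes E-cadherin, rose from 67 and 67 to 159 and 151 (1.20 ± 0.10, adjusted p = 3.8e-08), and Krt8, a keratin of simple epithelia, rose from 19 and 17 to 72 and 71 (1.93 ± 0.22, adjusted p = 3.2e-06). In each of these 3 genes the replicates of a day lay close together and far from the other day. Tight-junction claudins rose from almost nothing. Cldn7 had 1 and 1 and then 18 and 16 (3.17 ± 0.26, adjusted p = 5.9e-08), Cldn4 had 5 and 3 and then 38 and 27 (2.75 ± 0.36, adjusted p = 1.3e-05), and Cldn3 had 2 and 2 and then 20 and 14 (2.56 ± 0.42, adjusted p = 1.6e-04), a call that ended at a pseudocount of 0.1 (adjusted p = 0.0894).

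By role, 8 of 13 adherens and tight-junction genes, 3 of 11 desmosome and keratin genes and 8 of 9 regulators and surface proteins rose. The regulators had the largest median, 1.94, but 9 of 15 listed passed the filter, which left out members that stayed low. Elf3, an epithelial Ets factor, rose from 8 and 9 to 39 and 34 (1.98 ± 0.22, adjusted p = 2.1e-06), and Rab25, a small GTPase of epithelial recycling endosomes, went from 0 and 1 to 10 and 11 (3.02 ± 0.32, adjusted p = 1.3e-06). Spint1, an inhibitor of membrane serine proteases, rose from 8 and 9 to 39 and 32 (1.94 ± 0.36, adjusted p = 5.3e-04), and this call did not hold with a pseudocount of 0.1 (adjusted p = 0.244). Dsg2, the desmoglein of simple epithelia, rose from 3 and 3 to 20 and 17 (2.28 ± 0.26, adjusted p = 2.9e-06), and Krt19, a further simple-epithelial keratin, from 12 and 12 to 20 and 22 (0.76 ± 0.18, adjusted p = 0.00478, and 0.0612 in a fit of the control groups alone). Desmosome genes that had been high on day 5 were not called. Jup, plakoglobin, had 226 and 233 and then 242 and 250 (0.10 ± 0.05, adjusted p = 0.181), and Dsp, desmoplakin, had 45 and 54 and then 41 and 38 (−0.31 ± 0.20, adjusted p = 0.265). Of the 7 epithelial genes not tested, Esrp1, an epithelial splicing factor, was listed at 0 and 0 on day 5 and at 3 and 3 on day 7.

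The letters CACCTG, the E-box that Snail, Zeb and Twist family factors bind, are shown in the promoters of Epcam, chr17:87635729-87635978 (plus strand), and Krt8, chr15:102004343-102004592 (minus strand), both in GRCm38.p6 and from RefSeq.
Epcam: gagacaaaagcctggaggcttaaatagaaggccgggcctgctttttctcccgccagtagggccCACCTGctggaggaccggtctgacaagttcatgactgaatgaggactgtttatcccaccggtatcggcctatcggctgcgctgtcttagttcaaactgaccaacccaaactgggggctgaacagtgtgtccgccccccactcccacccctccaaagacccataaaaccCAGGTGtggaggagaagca
Krt8: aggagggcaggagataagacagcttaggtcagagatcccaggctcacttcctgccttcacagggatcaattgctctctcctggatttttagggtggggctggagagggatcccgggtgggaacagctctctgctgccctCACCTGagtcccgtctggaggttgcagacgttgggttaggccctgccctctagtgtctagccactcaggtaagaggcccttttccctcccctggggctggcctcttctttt
The Epcam promoter holds the E-box at −187 to −182 and at −19 to −14, and the Krt8 promoter at −111 to −106. Searched on both strands, these letters occur in 15 of the 22 tested epithelial genes with a sequence (68.2%), Krt8 among them. They occur in 10 of 17 tested pluripotency genes (58.8%), where Epcam is counted, and in 2 of 15 tested mesenchymal regulators (13.3%), against 19.4% of all promoters. Among all genes with a sequence that rose from day 5 to day 7 the share was 16.9%, and among those that fell it was 17.8%.

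Mesenchymal regulators fell moderately. Of 26 tested members 14 fell and none rose, with a median of −0.37, and 3 fell in a fit of the 4 libraries alone. Prrx1, a homeodomain factor of limb and body-wall mesenchyme, fell from 86 and 100 to 51 and 54 (−0.81 ± 0.08, adjusted p = 3.1e-07), and Twist1, a helix-loop-helix factor of mesenchyme, from 141 and 128 to 94 and 102 (−0.45 ± 0.06, adjusted p = 2.6e-05). Snai2, called Slug and a repressor of E-cadherin, fell from 7 and 9 to 3 and 5 (−0.87 ± 0.16, adjusted p = 4.2e-04). All day 7 values of these 3 genes lie below their day 5 values. Zeb1, another such repressor, had 15 and 19 and then 12 and 13 (−0.41 ± 0.11, adjusted p = 0.00894), and its call was lost without replicate 2 of day 5 (adjusted p = 0.177), without replicate 1 of day 7 (adjusted p = 0.0835) and in a fit of the control groups alone (adjusted p = 0.0756). Among adhesion and cytoskeletal genes, 8 of 13 fell. Cdh11, a mesenchymal cadherin, fell from 51 and 53 to 33 and 34 (−0.62 ± 0.07, adjusted p = 4.9e-06), while Acta2, smooth-muscle actin, had 50 and 48 and then 44 and 44 (−0.15 ± 0.11, adjusted p = 0.327). Acta2 had already come down from a mean of 6023.5 in MEFs.

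The extracellular matrix gave the broadest fall. Of 56 tested members 44 fell and 1 rose, with a median of −0.49, and the summed value of the 57 listed genes went from 12414 and 13375 to 8967 and 9215. Leaving out a library gave between 37 and 45 falls, and a fit of the 4 libraries alone 22. Tnc, tenascin C, fell from 58 and 66 to 18 and 22 (−1.59 ± 0.09, adjusted p = 3.0e-10), Postn, periostin, from 79 and 80 to 28 and 30 (−1.42 ± 0.09, adjusted p = 3.1e-09), and Bgn, the proteoglycan biglycan, from 277 and 291 to 122 and 133 (−1.15 ± 0.07, adjusted p = 5.9e-10). The days lie far apart in all 3 genes, with replicates close together. Among collagens 14 of 18 fell, 2 of 18 in a fit of the 4 libraries alone. Col1a2 fell from 1076 and 1227 to 633 and 655 (−0.83 ± 0.06, adjusted p = 4.3e-09) and Col1a1 from 418 and 507 to 290 and 319 (−0.60 ± 0.08, adjusted p = 2.9e-05), both chains of collagen I. Col6a2, a chain of the microfibrillar collagen VI, had 189 and 211 and then 172 and 188 (−0.15 ± 0.07, adjusted p = 0.118). Enzymes and inhibitors of matrix turnover fell in 15 of 17 cases. Timp2, an inhibitor of metalloproteinases, fell from 443 and 478 to 258 and 266 (−0.81 ± 0.05, adjusted p = 7.5e-10), Loxl2, a collagen cross-linking oxidase, from 71 and 79 to 41 and 42 (−0.84 ± 0.07, adjusted p = 5.9e-08), and Mmp10, the metalloproteinase stromelysin, from 29 and 25 to 10 and 10 (−1.34 ± 0.21, adjusted p = 8.3e-05). Inhibitor and protease genes moved in the same direction. The riser was Eln, elastin, listed at 0 and 0 and then at 1 and 2 (1.29 ± 0.33, adjusted p = 0.00605), and not called without replicate 2 of day 7 (adjusted p = 0.0849).

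**Figure D3:**
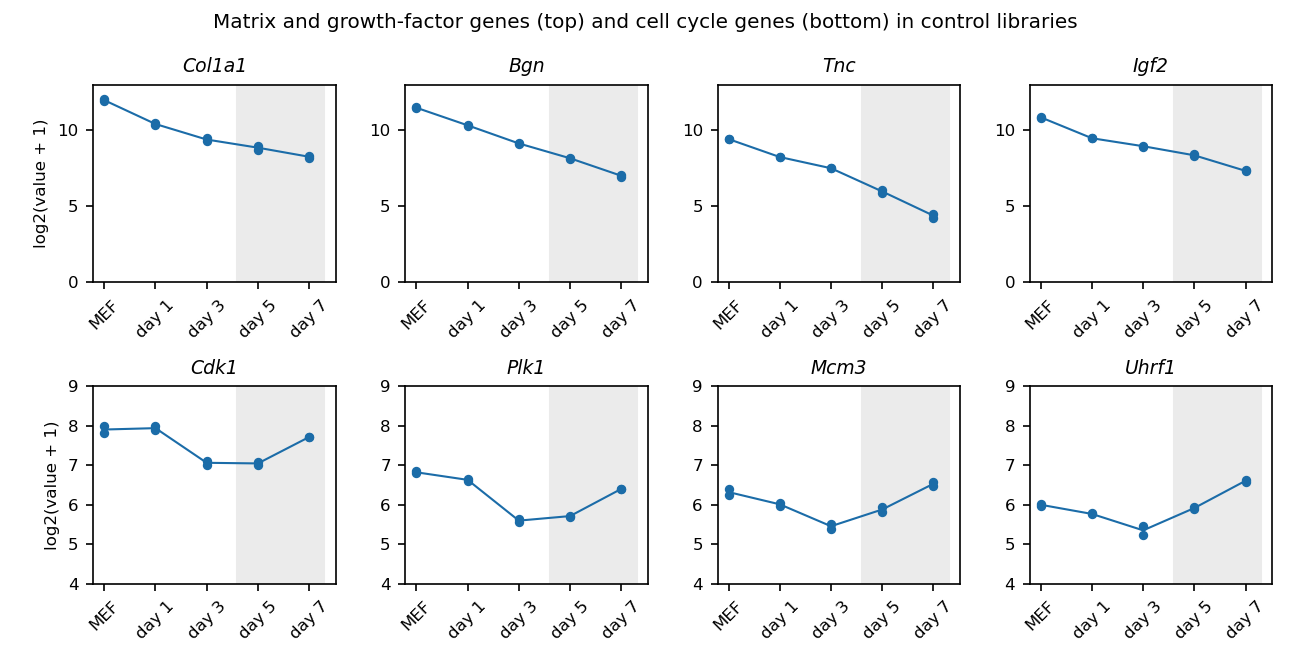
Values of Col1a1, Bgn, Tnc and Igf2 (top) and of Cdk1, Plk1, Mcm3 and Uhrf1 (bottom) in control libraries from MEFs to day 7, as log2(value + 1), with the lower axis running from 4 to 9. Points are single libraries, lines join group means, and grey marks day 5 to day 7: the upper genes fell throughout, and the lower genes stood at their lowest on day 3 or day 5 and rose by 0.65 to 0.69 from day 5 to day 7.

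Interferon-response genes, which had climbed up to day 5, turned down. Of 43 tested members none rose and 32 fell, with a median of −0.71, and the summed value of the list went from 7800 and 7681 on day 5 to 4671 and 4696 on day 7. Before that it had been 175 and 179 in MEFs, 290 and 325 on day 1 and 4290 and 5263 on day 3. Leaving out replicate 2 of day 5 or replicate 1 of day 7 gave 22 falls, and a pseudocount of 0.1 gave 18. Iigp1, an immunity-related GTPase, had values of 115 and 111 on day 5 and of 21 and 19 on day 7 (−2.44 ± 0.21, adjusted p = 7.6e-08). The guanylate-binding proteins, GTPases that attack the vacuoles of pathogens, fell alongside. Gbp2 went from 299 and 285 to 87 and 80 (−1.79 ± 0.20, adjusted p = 2.7e-06), and Gbp2b from 112 and 104 to 30 and 26 (−1.91 ± 0.14, adjusted p = 1.9e-08). Igtp, another immunity-related GTPase, went from 244 and 231 to 96 and 84 (−1.39 ± 0.23, adjusted p = 1.3e-04), a call that did not hold with a pseudocount of 0.1 (adjusted p = 0.107). In all 4 genes the day 5 values are more than 2 times the day 7 values. Tgtp2 fell from 180 and 128 to 58 and 51 (−1.46 ± 0.30, adjusted p = 0.00133), but its copy Tgtp1 is 99.8% identical and reads could be split between them, and with a pseudocount of 0.1 the call was lost (adjusted p = 0.122).

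Of 9 sensors and regulators 7 fell, 4 without replicate 2 of day 5. Stat2, a transcription factor that carries the interferon signal, fell from 163 and 177 to 79 and 93 (−0.98 ± 0.09, adjusted p = 2.5e-07). Irf1, an interferon-induced transcription factor, fell from 86 and 86 to 43 and 47 (−0.92 ± 0.19, adjusted p = 0.00148). Both regulators were lower in both day 7 libraries than in either day 5 library. Some effectors were not called. Rtp4, an interferon-induced chaperone, had 275 and 271 and then 215 and 220 (−0.33 ± 0.15, adjusted p = 0.122), and Oasl2, of the oligoadenylate synthetase family, had 328 and 309 and then 221 and 239 (−0.47 ± 0.26, adjusted p = 0.206). Both lie lower on day 7 in every library, but the days did not overlap in 54.7% of all genes tested.

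The promoters of Gbp2, chr3:142620413-142620662 (plus strand), Igtp, chr11:58199306-58199555 (plus strand), and Irf1, chr11:53769764-53770013 (plus strand), in GRCm38.p6 and from RefSeq, are shown because these genes span the effectors and the regulators.
Gbp2: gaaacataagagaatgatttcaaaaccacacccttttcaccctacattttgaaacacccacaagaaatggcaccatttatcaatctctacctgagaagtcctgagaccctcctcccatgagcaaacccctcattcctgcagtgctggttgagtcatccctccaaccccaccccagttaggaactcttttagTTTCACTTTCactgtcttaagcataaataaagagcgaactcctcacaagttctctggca
Igtp: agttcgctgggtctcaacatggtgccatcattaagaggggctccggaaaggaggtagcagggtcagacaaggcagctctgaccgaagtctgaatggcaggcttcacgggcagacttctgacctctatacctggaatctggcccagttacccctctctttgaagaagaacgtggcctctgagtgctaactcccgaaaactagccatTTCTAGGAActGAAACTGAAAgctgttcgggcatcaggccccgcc
Irf1: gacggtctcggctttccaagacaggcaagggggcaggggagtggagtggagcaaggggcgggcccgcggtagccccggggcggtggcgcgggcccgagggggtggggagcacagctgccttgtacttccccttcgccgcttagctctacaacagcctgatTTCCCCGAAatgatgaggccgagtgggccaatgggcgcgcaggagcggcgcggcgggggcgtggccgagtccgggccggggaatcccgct
Capitals mark the core of the interferon-stimulated response element (ISRE, GAAA at both ends of 2 free bases), at −59 to −50 in Gbp2 and at −34 to −25 in Igtp, and the gamma-activated site (GAS, TTCNNNGAA), at −45 to −37 in Igtp and at −90 to −82 in Irf1. On both strands the ISRE letters occur in 18 of the 31 tested interferon genes with a sequence (58.1%) and the GAS letters in 8 (25.8%), against 3.46% and 8.13% of all promoters of this length. The 18 include the near-identical pairs Tgtp1 and Tgtp2 and Ifit3 and Ifit3b. Over all genes with a sequence, ISRE letters occur in 5.17% of those that fell and in 2.85% of those that rose.

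Antigen presentation, which interferon also induces, fell in part. Of 14 tested genes 9 fell and none rose, with a median of −0.57, and 3 fell in a fit of the 4 libraries alone. Psmb10, a subunit of the immunoproteasome, fell from 129 and 140 to 66 and 63 (−1.05 ± 0.11, adjusted p = 1.6e-06). Tap1, which pumps peptides into the endoplasmic reticulum, fell from 179 and 182 to 101 and 94 (−0.88 ± 0.17, adjusted p = 8.0e-04). The heavy chains of classical class I were not called and stayed high. H2-K1 had 1591 and 1383 and then 1476 and 1338 (−0.08 ± 0.07, adjusted p = 0.464), and H2-D1 had 891 and 795 and then 844 and 792 (−0.04 ± 0.06, adjusted p = 0.64). The values of the 2 days overlap for both genes.

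Some markers of macrophages, cells that express many interferon genes, fell as well. Of the 17 tested 11 were not called, and over all genes tested 16.4% fell. The summed value of 20 macrophage markers was 672 and 687 on day 5 and 474 and 480 on day 7, and of 17 tested 5 fell and 1 rose, with 2 falls left without replicate 2 of day 7 and 3 without replicate 1 of day 7. Lyz2, the lysozyme of myeloid cells, fell from 270 and 261 to 98 and 109 (−1.35 ± 0.10, adjusted p = 2.1e-08), which made up most of the fall of the sum. Ctss, cathepsin S, fell from 27 and 31 to 10 and 14 (−1.22 ± 0.19, adjusted p = 7.2e-05). Cd209f, a lectin of the Cd209 cluster, rose from 10 and 8 to 46 and 39 (2.12 ± 0.26, adjusted p = 6.6e-06), and 32.7% of its transcript is shared with Cd209g, so reads could be split between them. Of the markers not tested for low values, Ptprc stood at 1 and Cd163 at 0 in all 4 libraries, and Aif1 at 2 and 1 and then at 2 and 2. In each of the 4 libraries 1 of the 20 markers was listed at 0. In the pre-p38i arm the macrophage sum was lower, 221 and 203 on day 5 and 142 and 139 on day 7, while its interferon sum was 8182 and 8725 and then 5225 and 5344. The part of macrophages in the interferon result was not tested. Markers of T and NK cells were listed at 0 in 9 of 10 cases, the exception being Cd3g at 52 and 50 and then 37 and 46 (−0.30 ± 0.26, adjusted p = 0.444), and 10 endothelial markers summed to 63 and 68 and then to 67 and 64.

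**Figure D4:**
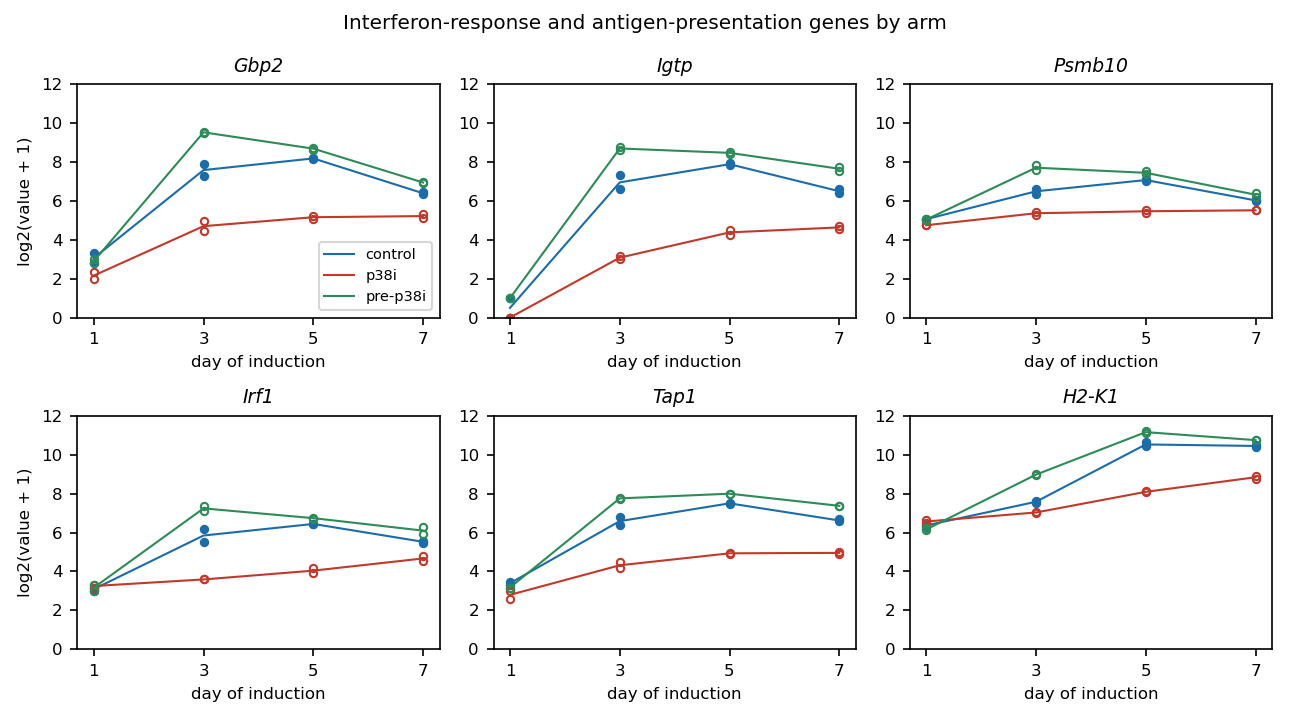
Values of 6 interferon-response and antigen-presentation genes on days 1, 3, 5 and 7 of induction, as log2(value + 1), in control (blue, filled), p38i (red, open) and pre-p38i (green, open) libraries. Points are single libraries and lines join group means: control values of Gbp2, Igtp, Psmb10, Irf1 and Tap1 fell from day 5 to day 7, those of H2-K1 changed by −0.08, and the p38i values lay below the control values from day 3 on.

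The cell cycle genes rose together. Of 32 tested mitosis genes 30 rose and none fell, with a median of 0.50, and of 33 tested DNA replication genes 25 rose and none fell, with a median of 0.42. In a fit of the 4 libraries alone these counts were 13 and 12. Cdk1, the kinase that drives mitosis, had values of 134 and 128 on day 5 and of 207 and 210 on day 7 (0.67 ± 0.08, adjusted p = 4.7e-06). Plk1, a kinase of spindle assembly, rose from 51 and 52 to 83 and 84 (0.69 ± 0.06, adjusted p = 2.1e-07), and Mad2l1, of the spindle checkpoint, from 43 and 40 to 70 and 67 (0.71 ± 0.09, adjusted p = 5.9e-06). Cenpa, the histone variant of centromeres, had the largest rise of the list, 0.72 ± 0.11 (adjusted p = 5.6e-05), from 64 and 69 to 121 and 100. Among replication genes, Cdc45, part of the replicative helicase, rose from 12 and 13 to 22 and 22 (0.77 ± 0.15, adjusted p = 7.0e-04), and Mcm3, a subunit of its ring, from 55 and 61 to 95 and 88 (0.65 ± 0.09, adjusted p = 1.8e-05). E2f1, a transcription factor of S phase entry, had 25 and 27 and then 23 and 25 (−0.11 ± 0.09, adjusted p = 0.411).

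Genes that hold the cycle back or pace it went the other way. Of 11 tested cyclins and inhibitors of the G1 phase 6 fell and 1 rose, and 2 fell in a fit of the 4 libraries alone. Cdkn1a, the inhibitor p21, fell from 1027 and 1033 to 803 and 891 (−0.28 ± 0.04, adjusted p = 9.0e-05), Cdkn2b, the inhibitor p15, from 76 and 73 to 52 and 49 (−0.55 ± 0.08, adjusted p = 5.3e-05), and the D-type cyclin Ccnd3 from 431 and 422 to 283 and 292 (−0.57 ± 0.05, adjusted p = 5.3e-08). Cdkn1b, the inhibitor p27, rose from 17 and 18 to 25 and 25 (0.49 ± 0.11, adjusted p = 0.00231). Trp53, whose product p53 induces p21, had 184 and 199 and then 215 and 200 and was not called (0.12 ± 0.07, adjusted p = 0.212). Of 20 tested p53 targets 8 fell and 2 rose, with a median of −0.09, but 5 fell without replicate 1 of day 7 and none rose without replicate 2 of day 7. Mdm2, which degrades p53, fell from 187 and 187 to 126 and 148 (−0.45 ± 0.07, adjusted p = 1.1e-04), and Fas, a death receptor, from 27 and 27 to 16 and 14 (−0.81 ± 0.17, adjusted p = 0.00143). Ribosomal protein genes rose in 25 of 27 cases with a median of 0.31, which quantile normalization reduced to 16 cases and 0.16, and a fit of the 4 libraries alone to 8 cases. Rpsa, of the small subunit, went from 1498 and 1447 to 2080 and 2019 (0.48 ± 0.05, adjusted p = 3.8e-07).

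Among signalling genes, several Wnt targets rose. Of 17 listed Wnt genes 12 were tested, 7 rose and none fell, with a median of 0.73, and 3 of those with a mean of at least 5. The untested members T, Lgr5, Dkk1 and Cdx2 were listed at 0 in all 4 libraries, and Wif1 at 0 and 0 and then at 2 and 1. Nkd1, an inhibitor that Wnt itself induces, rose from 8 and 7 to 54 and 48 (2.61 ± 0.35, adjusted p = 1.8e-05), a call lost with a pseudocount of 0.1 (adjusted p = 0.0664), and Axin2, the classic feedback target, from 11 and 12 to 24 and 27 (1.08 ± 0.18, adjusted p = 1.9e-04). Cdx1, a homeobox target, rose from 1 and 3 to 15 and 10 (2.23 ± 0.35, adjusted p = 8.4e-05). All 3 are known to be induced by beta-catenin, and their days do not overlap. Of 6 tested BMP ligands and antagonists 4 fell, 2 without replicate 2 of day 5 or without replicate 1 of day 7. Fst, follistatin, which traps activin and BMPs, fell from 70 and 69 to 31 and 32 (−1.12 ± 0.09, adjusted p = 2.1e-08), and the antagonist Grem1 from 171 and 193 to 98 and 105 (−0.83 ± 0.05, adjusted p = 9.2e-10). The BMP target Id3 rose from 39 and 42 to 69 and 69 (0.76 ± 0.10, adjusted p = 2.2e-05), whereas Id1 had 61 and 49 and then 65 and 67 (0.27 ± 0.18, adjusted p = 0.295). ERK pathway genes did not move one way, with 3 rises and 3 falls among 19, no falls without replicate 2 of day 5, and 1 of each without replicate 1 of day 7. Etv5, an Ets factor that ERK induces, rose from 114 and 123 to 156 and 150 (0.37 ± 0.06, adjusted p = 2.8e-04). In the p38 pathway 2 of 17 fell and none rose. Over all genes tested 16.4% fell, so the falls in the ERK and p38 lists are near or below that share. Mapk14, which encodes p38 alpha, had 41 and 39 and then 40 and 42 (0.03 ± 0.07, adjusted p = 0.774), and the phosphatase Dusp1 fell from 31 and 30 to 21 and 18 (−0.62 ± 0.10, adjusted p = 1.3e-04).

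Metabolic genes moved little. Of 21 tested glycolysis genes 8 rose and 3 fell, with a median of 0.08, and 4 and 1 without replicate 1 of day 7, 1 fall without replicate 2 of day 5 or of day 7, and 5 rises under quantile normalization. Ldha, lactate dehydrogenase, rose from 448 and 428 to 536 and 526 (0.28 ± 0.04, adjusted p = 4.1e-05), and Slc2a1, the main glucose transporter, from 67 and 62 to 86 and 85 (0.40 ± 0.09, adjusted p = 0.00196). Respiratory chain genes divided by genome. Of the 13 encoded in mitochondria 8 fell, with a median of −0.32, 5 without replicate 1 of day 7 and none in a fit of the 4 libraries alone, and of 21 nuclear ones 6 rose and none fell, 2 in that fit. mt-Nd4, of complex I, fell from 2938 and 2866 to 2052 and 2302 (−0.42 ± 0.07, adjusted p = 3.0e-04), and mt-Cytb, of complex III, from 4090 and 3929 to 3032 and 3313 (−0.34 ± 0.08, adjusted p = 0.00247). Ndufb8, a nuclear subunit of complex I, rose from 247 and 237 to 326 and 324 (0.42 ± 0.06, adjusted p = 3.5e-05). mt-Atp6 is 1 of the 8 that fell but is uncertain, because Gm10925, an identical copy, moved the opposite way. Identical copies of mt-Co2 and mt-Co3 also held high values, so reads could be split between them. Gm28661, the copy of mt-Co2, had 8183 and 8062 and then 5873 and 6365. Gm28437, the copy of mt-Co3, had 6321 and 6513 and then 5286 and 5758. Of 21 sterol synthesis genes 3 fell, 1 without replicate 2 of day 5, and of 17 genes of the amino acid stress response 5 rose, 3 without replicate 2 of day 5 or of day 7. The sterol falls lie near the share of all genes tested that fell, 16.4%. Asns, asparagine synthetase, rose from 110 and 116 to 141 and 132 (0.27 ± 0.06, adjusted p = 0.00116).

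Among DNA methylation genes 4 of 7 rose and none fell, 2 in a fit of the 4 libraries alone. Uhrf1, which brings the maintenance methylase to replicating DNA, rose from 58 and 61 to 95 and 98 (0.69 ± 0.07, adjusted p = 4.2e-07), and that methylase, Dnmt1, from 68 and 73 to 91 and 87 (0.33 ± 0.07, adjusted p = 9.5e-04). Dnmt3b, a de novo methylase of pluripotent cells, went from 1 and 1 to 7 and 6 (1.90 ± 0.41, adjusted p = 0.00175), which was not called with a pseudocount of 0.1 (adjusted p = 0.145). All 3 had no overlap between the days. Of 16 germline genes Piwil2 was the single one above the minimum mean, at 1 and 2 and then at 4 and 4, and the other 15 were listed at 0. The Piwil2 rise (adjusted p = 0.00372) was not called without replicate 1 of day 5 (adjusted p = 0.0619). Imprinted genes moved both ways, with 5 rises, 3 without replicate 2 of day 7, and 6 falls among 19 tested. Igf2, a fetal growth factor, had values of 312 and 338 on day 5 and of 156 and 163 on day 7 (−1.02 ± 0.04, adjusted p = 1.5e-11), and H19, the noncoding RNA beside it, went from 529 and 545 to 297 and 348 (−0.74 ± 0.07, adjusted p = 3.4e-07). Igf2 and H19 are neighbours that are read from opposite parental copies in normal tissue. Igf2r, the receptor that clears Igf2, also fell, from 103 and 114 to 70 and 73 (−0.59 ± 0.06, adjusted p = 3.8e-07). Peg10, a gene of retrotransposon origin needed in the placenta, rose from 7 and 8 to 21 and 21 (1.37 ± 0.09, adjusted p = 3.0e-09).

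Genes of other lineages were called about as often as all genes tested, of which 26.7% were. Of 24 epidermal genes 16 were tested, 2 rose and 2 fell, and no fall was left without replicate 2 of day 5 or of day 7. Lgals7, a galectin of stratified epithelia, rose from 32 and 34 to 124 and 110 (1.79 ± 0.28, adjusted p = 9.6e-05), and Sfn, a stratifin of epithelial cells, from 13 and 13 to 37 and 35 (1.40 ± 0.16, adjusted p = 3.3e-06), while Krt5 and Krt15, keratins of the basal epidermis, were at 0 in all 4 libraries. Of 29 genes of endoderm, trophoblast, nerve and muscle 12 were tested, 1 rose and 2 fell, with 3 rises when no filter was set. Tfap2c, a factor of trophoblast and germ cells, rose from 1 and 1 to 4 and 4 (1.32 ± 0.28, adjusted p = 0.00157), lost with a pseudocount of 0.1 (adjusted p = 0.13), and Stmn2, a neuronal microtubule protein, fell from 162 and 154 to 123 and 131 (−0.31 ± 0.07, adjusted p = 0.0014). All 3 tested adipocyte markers fell, of 10 listed, 1 of them in those with a mean of at least 5 or in a fit of the 4 libraries alone. Lpl, lipoprotein lipase, fell from 153 and 165 to 110 and 99 (−0.60 ± 0.10, adjusted p = 1.6e-04). Adipoq and Plin1, which define adipocytes, were at 0.

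Several of the largest changes belonged to no list. Mylpf, a myosin light chain of skeletal muscle, had values of 4 and 4 on day 5 and of 55 and 49 on day 7 (3.40 ± 0.43, adjusted p = 9.8e-06), while the muscle factors Myod1 and Myog were listed at 0. Bhmt, which remethylates homocysteine with betaine, rose from 7 and 5 to 54 and 51 (2.95 ± 0.25, adjusted p = 7.3e-08). Rhox6, an X-linked homeobox gene of placenta and germ line, rose from 3 and 2 to 20 and 18 (2.53 ± 0.37, adjusted p = 4.6e-05), with an adjusted p of 0.059 at a pseudocount of 0.1. Ppp1r14d, an inhibitor of protein phosphatase 1, rose from 2 and 1 to 15 and 17 (2.79 ± 0.30, adjusted p = 1.5e-06). Each of these 4 genes was low in both day 5 libraries, but they were named for the size of their change, so this is no further support. Gm37697, a predicted gene, rose from 12 and 13 to 111 and 105 (3.01 ± 0.42, adjusted p = 2.6e-05), but not with a pseudocount of 0.1 (adjusted p = 0.0785), and Gm38226, at 6 and 4 and then 55 and 71, has near-identical copies and is uncertain. The falls outside the lists included proteases of blood cells. Mcpt8, a protease of basophils, fell from 13 and 10 to 2 and 2 (−2.05 ± 0.30, adjusted p = 4.3e-05), and Mmp12, the macrophage elastase, from 28 and 32 to 9 and 7 (−1.79 ± 0.21, adjusted p = 3.8e-06). Plxnd1, a semaphorin receptor, fell from 11 and 10 to 3 and 2 (−1.73 ± 0.27, adjusted p = 9.9e-05).

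More genes were called from day 5 to day 7 in control than in the p38i arm. In p38i 555 genes rose and 269 fell, 4.2% and 2.03% of those tested, with a root mean square difference of 0.347. The arms share no library in this comparison. Of the 1363 control rises 319 were also called higher in p38i (23.4% of them, and 57.5% of the p38i rises), and of the 2169 control falls 209 were called lower there (9.64% of them, and 77.7% of the p38i falls). The difference between the 2 changes was itself called for 750 genes, 5.67% of those tested, 206 with a higher change in control (1.56%) and 544 with a lower one (4.11%). Quantile normalization turned that split to 322 and 388. Without replicate 2 of day 5 the count was 337, and without replicate 1 or 2 of day 7 it was 350 or 433.

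Interferon genes fell in control, and none was called in p38i. The median of the 43 members in p38i was 0.13, the summed value there was 3011 and 2978 on day 5 and 3374 and 3275 on day 7, and the change was lower in control for 18, 10 without replicate 2 of day 5 and 11 without replicate 1 of day 7. Gbp2 had 37 and 33 and then 34 and 39 in p38i, and its control change was lower (difference of changes −1.85 ± 0.29, adjusted p = 8.2e-04). Irf1 had 14 and 17 and then 27 and 22 there (difference of changes −1.55 ± 0.27, adjusted p = 0.00259). By day 7 the interferon sum of the control was still above that of p38i. H2-K1, not called in control, rose in p38i from 277 and 268 to 483 and 437 (difference of changes −0.83 ± 0.10, adjusted p = 7.8e-05), and antigen presentation changed lower in control in 12 of 14 genes, 6 in a fit of the groups compared alone. The matrix list had 36 of 56 members with a lower change in control, 20 without replicate 2 of day 5, 22 without replicate 1 of day 7 and 9 in that fit. Postn stood at 32 and 30 and then at 28 and 34 in p38i (difference of changes −1.42 ± 0.13, adjusted p = 4.4e-06). Igf2 fell in both arms, less in p38i, from 378 and 372 to 300 and 307 (difference of changes −0.72 ± 0.06, adjusted p = 2.5e-06).

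A part of the cell cycle genes rose more in control than in p38i. Of the mitosis list 10 of 32 members had a higher change in control, 6 without replicate 2 of day 5 and 5 without replicate 1 of day 7, and of the replication list 8 of 33, 4 without replicate 1 of day 5, 3 without replicate 2 of day 5 and 1 without replicate 1 of day 7. In a fit of the groups compared alone these counts were 1 and 0, and quantile normalization gave 13 for the replication list. Plk1 had 36 and 34 and then 38 and 35 in p38i (difference of changes 0.63 ± 0.09, adjusted p = 3.9e-04). Of the pluripotency list 6 of 28 members had a higher change in control and 1 a lower one, with 3 higher at a pseudocount of 0.1. Nanog reached 1 and 1 on day 7 in p38i, from 0 and 0 (difference of changes 2.39 ± 0.38, adjusted p = 0.00101), and Dppa5a, Sall4 and Esrrb were listed at 0 in all 4 p38i libraries. Of 33 tested epithelial genes 13 rose in p38i, where the median was 0.42, against 0.83 in control. The change was called higher in control for none and lower for 1. The median difference of changes was still 0.42, against 0.37 for the pluripotency list and 0.38 for the mitosis list. Krt8 rose from 6 and 8 to 31 and 28 in p38i (difference of changes −0.01 ± 0.31, adjusted p = 1), and Epcam from 30 and 28 to 98 and 89 (0.64 ± 0.28, adjusted p = 0.205). Epcam is counted in the pluripotency list and not in the epithelial one. Neither the missing calls of the epithelial list nor the p-values of Krt8 and Epcam show that the arms changed alike.

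Most control calls were also made in the pre-p38i arm. There 1299 genes rose and 2523 fell from day 5 to day 7, 9.82% and 19.1% of those tested, with a root mean square difference of 0.5. Of the control rises 784 were called higher in pre-p38i (57.5% of them, and 60.4% of the pre-p38i rises), and of the control falls 1507 were called lower (69.5% of them, and 59.7% of the pre-p38i falls). The difference between the changes was called for 238 genes, 1.8% of those tested, 189 higher in control (1.43%) and 49 lower (0.37%), a count that ranged from 120 to 199 when a library was left out. Nanog went from 3 and 3 to 28 and 28 in pre-p38i and Dppa5a from 0 and 1 to 50 and 41, and for neither was the difference from control called (adjusted p = 0.636 and 0.838). Interferon genes fell in 35 of 43 cases, and for none was the difference between the arms called. The matrix list had 10 members with a higher change in control, 5 without replicate 1 of day 5, 4 without replicate 2 of day 7 and 1 in a fit of the groups compared alone. Grem1, for example, fell from 44 and 44 to 12 and 12 in pre-p38i (difference of changes 0.96, adjusted p = 3.1e-07). Glycolysis genes had a lower change in control in 7 of 21 cases, 4 without replicate 2 of day 5 and 2 in a fit of the groups compared alone, with 13 rises in pre-p38i. Ldha rose there from 515 and 498 to 828 and 765.

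**Figure D5:**
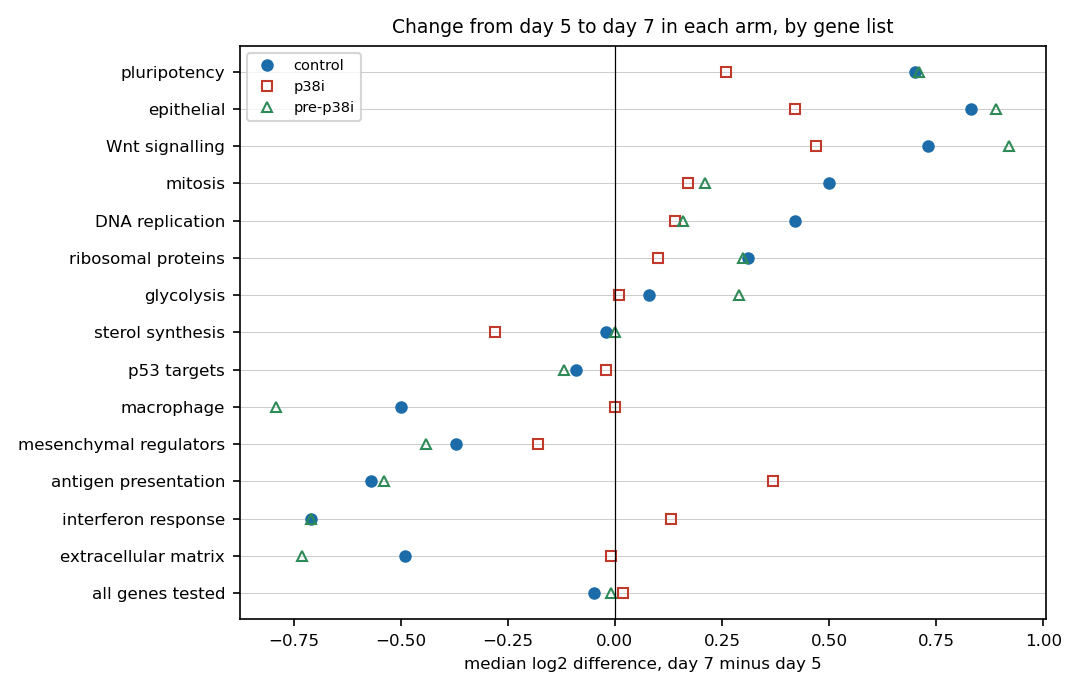
Median log2 difference of day 7 minus day 5 over the tested members of each gene list in control (blue circles), p38i (red squares) and pre-p38i (green triangles) cells, with all genes tested at the bottom. For interferon response the medians are −0.71, 0.13 and −0.71, and for epithelial genes all 3 lie above 0.

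Set against the preceding step of the same course, some programmes turned and others went on. The step from day 3 to day 5 shares the day 5 libraries with the step from day 5 to day 7, so a deviation of those libraries enters both with opposite signs. From day 3 to day 5, 1832 genes rose (13.8%) and 737 fell (5.57%). The 2 steps differed for 1104 genes, 8.34% of those tested, 268 with a higher later step (2.03%) and 836 with a lower one (6.32%). Quantile normalization gave 394 and 528, and it moved the median difference of the steps from −0.13 to −0.01. Without replicate 2 of day 5 the count was 218, and without replicate 1 of day 7 it was 684. The interferon list had 30 rises in the earlier step (median 0.60) and 32 falls in the later one, and the steps differed in 34 of 43 members, 22 without replicate 1 of day 5, 13 without replicate 2 and 7 in a fit of the groups compared alone. Iigp1 rose from 20 and 42 on day 3 to 115 and 111 on day 5 before its fall (difference of steps −4.37 ± 0.36, adjusted p = 3.3e-07). Cdk1 had 128 and 137 on day 3 and 134 and 128 on day 5, and its step was higher afterwards (0.68 ± 0.14, adjusted p = 0.0041). Col1a1 and Cdh1 went on in the same direction, with steps that were not called different (−0.06 ± 0.14, adjusted p = 0.853, and 0.13 ± 0.17, adjusted p = 0.692). This does not show that their steps were equal. In the matrix list the later step was lower for 15 of 56 members, against 6.32% of all genes tested, and higher for 1, with a median of −0.26. In the epithelial list it was higher for 2 of 33 and lower for none, with a median of 0.36.

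The step from day 1 to day 3 shares no library with the interval analysed. It was larger, with 20.5% of genes rising and 24% falling. Of the 1363 genes that rose from day 5 to day 7, 210 had also risen from day 1 to day 3 (15.4% of them, and 7.73% of the 2715 earlier rises), 590 had fallen and 563 had not been called. Of the 2169 that fell, 656 had also fallen (30.2% of them, and 20.7% of the 3174 earlier falls) and 732 had risen. Mitosis genes had fallen in all 32 cases and replication genes in 29 of 33, whereas all 43 interferon genes had risen, with a median of 3.63. Cdk1 and Plk1 thus went down and then up again, and Gbp2 and Iigp1 up and then down, while Cdh1 and Epcam rose and Bgn and Tnc fell in both steps.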

How the data were processed

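RNA-seq libraries were grouped by title. Whole-number scores were deposited by the authors, 1 per gene and library, and their totals are those of TPM rounded down. The submitters' processing notes name bcl2fastq, Bowtie2 2.2.5, RSEM 1.3.0, mm10 and hg38 without a role. Labels and paper differ on RNA extraction and library kit. Of the gene identifiers, 99.6% are in GENCODE M21 (GRCm38), and dates had replaced 27 gene names, so identifiers were used. Depth is unknown.

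Scores were tested as log2(value + 1) with limma 3.58.1 (R 4.3.3), with a mean-variance trend and no block, as 1 model of 14 groups for 13230 genes. Differences between changes were contrasts of that model. In a simulation with 200 altered genes for day 7 against day 5, 86 of 100 were recovered at a log2 change of 1 and 100 of 100 at 2, and 7.92% of calls were unaltered genes.

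Named were the genes for which the paper gives RNA results, Trp53, Mapk14, Sox2 and Klf4, the 15 largest rises and falls whose mean over the 4 libraries reached 5 and whose days did not overlap, for each of 29 lists the largest called and the highest uncalled members, and the 5 largest differences each way of the other contrasts, with a selection of these in the text. Near-identical copies and list members outside the test were added after their values were seen. Members, lists and rule were chosen with earlier results of these data known.

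Each of the 4 libraries of control day 5 and day 7 was left out in turn, and none of the others. The pseudocount (0.1), the filter, the groups in the fit, the block, the normalization (quantile) and the fold minimum were varied. Promoters of 250 bases came from RefSeq (GRCm38.p6). Copies were found with BLAST 2.17.0+ (at least 95% identity over 200 bases). Python 3.11.15 and matplotlib 3.10.9 were used for tables and plots.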

Additional observations from a re-analysis of the deposited data

Results flagged for a closer look

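The changes listed here differed between arms or between steps of the control course by limma's test of the difference itself, with adjusted p-values over all 13230 genes. They are given as values, and their causes were not tested. The change from day 5 to day 7 differed between control and p38i for 750 genes and between control and pre-p38i for 238, and the control step from day 5 to day 7 differed from the step before it for 1104.

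Against p38i, the rise in control was larger for Dppa5a by 4.74 (adjusted p = 1.2e-06), for Mylpf by 3.04 (adjusted p = 0.00613) and for Rhox6 by 2.24 (adjusted p = 0.0169), all on the log2 scale. Mylpf stood at 2 and 4 and then at 4 and 4 in p38i, and Rhox6 at 0 and 1 and then at 0 and 2. Gm44206 (2.34, adjusted p = 0.00127) and Gm38226 (3.69, adjusted p = 0.0478) share sequence with other genes and are uncertain. The control change was lower for Iigp1 (−3.02, adjusted p = 5.8e-06), for Il18bp, which binds and blocks interleukin 18 (−2.54, adjusted p = 0.0117), for Gm4951, a predicted interferon-inducible GTPase (−2.36, adjusted p = 4.6e-05), and for Tgtp2 (−2.49, adjusted p = 0.00225), which has a near-identical copy. Il18bp fell from 31 and 36 to 7 and 10 in control and stood at 1 and 2 and then at 4 and 2 in p38i. Gm2000 (−3.23, adjusted p = 0.0135) is 99.6% identical to Rpl35 over its length, so its values are uncertain.

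Against pre-p38i, 5 genes are given whose change was lower in control, the largest such differences by the naming rule. Ndufa4l2, an inhibitor of complex I, had values of 0 and 0 and then 1 and 0 in control against 0 and 0 and then 47 and 27 in pre-p38i (−4.70, adjusted p = 7.8e-04). Slc16a3, the lactate exporter Mct4, had 0 and 0 and then 1 and 1 in control against 1 and 1 and then 39 and 24 (−2.98, adjusted p = 0.0029), and Bnip3, a mitophagy receptor, had 21 and 19 and then 18 and 19 against 14 and 22 and then 53 and 41 (−1.46, adjusted p = 0.00738). Crxos, a homeobox gene, and Klk1, a kallikrein, were the others, by −1.97 (adjusted p = 0.0108) and −1.41 (adjusted p = 0.0462). Higher changes in control were found for Cd209f (1.78, adjusted p = 0.0126), which shares 32.7% of its transcript with Cd209g, for the calmodulin-like Calml3 (2.00, adjusted p = 0.0399), for Pemt, which methylates phosphatidylethanolamine (1.69, adjusted p = 0.0184), and for the protocadherin Pcdh9 (1.66, adjusted p = 0.0343). Cyp26a1, which degrades retinoic acid, had 27 and 21 and then 29 and 25 in control while it went from 24 and 22 to 6 and 8 in pre-p38i (1.77, adjusted p = 0.00697).

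Against the step from day 3 to day 5, the step from day 5 to day 7 was higher for Dppa5a (4.74, adjusted p = 6.5e-06), Cldn7 (2.17, adjusted p = 0.00575), Capsl (2.23, adjusted p = 0.0309) and Cdkn3, a phosphatase of Cdk proteins (2.73, adjusted p = 0.0402). Hist1h2al (2.81, adjusted p = 0.0224) has near-identical histone copies. The later step was lower for Iigp1 (−4.37, adjusted p = 3.3e-07), Il18bp (−3.89, adjusted p = 0.00141), the macrophage enzyme Acod1 (−3.62, adjusted p = 7.1e-04) and the class I genes H2-Q4 (−3.64, adjusted p = 2.8e-09) and H2-Q6 (−3.76, adjusted p = 1.9e-08), which share 509 aligned bases. H2-Q6 rose from 2 and 2 to 47 and 35 by day 5 and then stood at 40 and 43. These steps share the day 5 libraries.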

How the results depend on the processing

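Of the genes named for day 7 against day 5, 103 were called, 63 of them under every alternative run and 84 under every alternative other than the fit of the 4 libraries alone, which has 2 residual degrees of freedom, and no call changed sign. The count of called genes was 1396 in that fit and 415 with a log2 change of at least 1, and it ranged from 2136 to 2916 when a library was left out. For the difference from p38i the counts were 178 with only the groups compared, 135 with a log2 difference of at least 1, and 337 to 644 without a library. For pre-p38i they were 52, 43 and 120 to 199, and 389 with no filter on low values. For the 2 control steps they were 138, 343 and 218 to 885, and 455 in a fit of the control groups. The libraries left out were those of control day 5 and day 7. No library of control day 3 or of the other arms was left out, so dependence on those was not examined. The cause of these moves was not tested. In the fit of the 4 libraries alone the calls of Nanog, Rab25, Cdx1, Snai2, Twist1, Col1a1, H19, Cenpa, Cdkn1a, Mdm2 and Dnmt1 were among the 27 lost.

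The root mean square steps became 1.6, 1.18, 0.73 and 0.683, in the order of the course, with a pseudocount of 0.1. They were 0.732, 0.398 and 0.383 from day 1 onwards for genes with a mean of at least 5, 0.988 from MEFs to day 1 after quantile normalization, which also put the step from day 3 to day 5 (0.454) below that from day 5 to day 7 (0.466), and 0.471 to 0.508 from day 5 to day 7 without a library. This last alternative and the list counts under each alternative were chosen after seeing the data. The sign of 3 uncalled genes turned when a library was left out, with ranges of −0.12 to 0.04 for H2-D1, −0.18 to 0.02 for H2-K1 and −0.00 to 0.07 for Mapk14. A pseudocount of 0.1 gave 12 rather than 25 falls among interferon effectors, 2 among BMP genes, 3 among macrophage markers, and 9 rather than 18 interferon members against p38i and 14 rather than 34 between the steps. A fit of the 4 libraries alone called none of the ERK genes, 2 rises and 2 falls of imprinted genes, 3 falls of p53 targets, 4 rises and 1 fall of glycolysis genes and 1 sterol synthesis and 1 amino acid stress gene. A fit of the control groups called 5 falls of p53 targets and 4 of epidermal genes, and 16 interferon members between the steps.

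Deviations of same-numbered replicates of day 5 and day 7 correlated by −0.02, within −0.08 to 0.09 over all pairs of groups. Same-numbered libraries thus showed no shared deviation, which cannot tell whether they came from the same culture or batch. With the replicate number as a block, 3515, 693, 233 and 1077 genes were called in the 4 comparisons, and of the named calls the block ended that of Upp1 (adjusted p = 0.0522). Since the values keep no read numbers, small differences near 0 cannot be weighed by depth.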

Other observations

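The predicted gene Gm38226 shares sequence, at 95% identity or more over at least 200 bases, with many transcripts, and several of those stood higher on day 7. They were noticed after the values were seen and were not tested as a group. Gm38226 itself had 6 and 4 on day 5 and 55 and 71 on day 7. Gm42860, which aligns with 96.4% of it, had 87 and 90 and then 336 and 314. Noct, which encodes nocturnin and aligns with 96.5%, had 23 and 23 and then 71 and 68, and Slc38a6, a solute carrier that aligns with 96.4%, had 64 and 66 and then 209 and 201. Rab3gap1 aligns with 82.9% and had 57 and 59 and then 121 and 121. Among genes that align with less of it, Gm29084 had 100 and 113 and then 404 and 401, whereas Zfp706 had 74 and 79 and then 86 and 93, and Trpc6 had 9 and 11 and then 11 and 11. In the p38i arm Gm42860 had 49 and 52 on day 5 and 90 and 86 on day 7, and in the pre-p38i arm 203 and 203 and then 708 and 699. How reads of the shared sequence were divided among these genes is not given in the sources used here, so the level of any single one is uncertain.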
